A study of Mus musculus with 8 samples.

Results

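The genes described here encode the machinery that moves and fuses secretory vesicles: Rab GTPases, the SNARE families VAMP, syntaxin and SNAP, and the synaptotagmins. They were taken by gene symbol from the protein-coding genes of the deposited table and comprised 102 of 55414 gene IDs, of which 59 were Rab genes, 7 Vamp genes, 15 syntaxin genes, 17 synaptotagmin genes and 4 Snap genes. The rule used names only and no measured value, although it was written with earlier results of these data known. Vamp7 was not analysed here. The cells were Paneth cells, sorted by fluorescence from small intestinal suspensions of C57BL/6J mice. In the water group 4 mice drank Milli-Q water, and in the zinc group 4 mice drank it with 25 mM zinc sulphate for 7 days. Each mouse gave 1 stranded mRNA library, and the mice carried no named transgene or deletion. The age and sex of the mice were not used here. Whether the 4 mice of a group were housed or sorted apart is not given in the labels. The p-values set the difference between the groups against the spread between these libraries. Whether each mouse is an independent replicate of the treatment is thus not known.

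Paneth cells store antimicrobial proteins in large apical granules and release them into the crypt lumen by regulated exocytosis. Along this route Rab GTPases mark each membrane and recruit motors and tethers, SNARE proteins on the vesicle and on the target membrane zip together to fuse them, and synaptotagmins couple fusion to calcium. In other exocrine cells Rab3D and Rab27 proteins sit on mature granules, and VAMP8 and VAMP2 are their usual vesicle SNAREs.

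The libraries held 20760764 to 24117111 counts. All 10 Paneth cell markers were present, and their summed level ran from 353506 to 729327 CPM (counts relative to library size, corrected with TMM factors that allow for a few genes taking most of the counts). Among them Reg3g was at 914.2 to 2040 CPM in water and 329.0 to 836.8 CPM in zinc. Its log2 fold change of zinc against water was -1.23 (edgeR adjusted p = 0.794). The groups overlapped for the other markers on this list. Immune markers summed to at most 1.30 CPM and stromal and nerve markers to at most 1.42 CPM, whereas goblet cell markers, some of which Paneth cells also express, summed to 8209 to 13795 CPM. Stem cell markers summed to 4356 to 5728 CPM in water and 3047 to 4455 CPM in zinc. Most of this sum was Olfm4, with a log2 fold change of zinc against water of -0.48 (edgeR adjusted p = 0.998). The log2 fold change was -0.02 for Lgr5, -0.24 for Ascl2 and 0.06 for Smoc2. Over the libraries enterocyte markers summed to 264.0 to 398.2 CPM, enteroendocrine markers to 73.0 to 149.7 CPM and tuft cell markers to 14.1 to 121.4 CPM. Most of the enterocyte sum was Anpep, at 204.5 to 353.2 CPM, followed by Fabp2 at 32.9 to 71.1 CPM. Alpi, Fabp1 and Lct were under 1 CPM in every library. The largest part of the goblet cell sum was Spink4, at 4750 to 9876 CPM. The part of other cell types in the results was not tested. The zinc-responsive metallothionein gene Mt2 was at 2.15 to 7.32 CPM in the water libraries and 205.1 to 455.3 CPM in the zinc libraries (edgeR adjusted p = 0.020). The libraries are bulk samples, in which fewer cells of a type and less RNA per cell cannot be told apart.

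Zinc is sensed by the transcription factor MTF-1, which binds metal-response elements, so the stretch before the start of member genes was read for the element's core (TGCACNC or TGCGCNC, on either strand). The 4 sequences shown are the 250 bases before the RefSeq start (GRCm38.p6) of the most abundant member, of the leading granule Rab, of the leading vesicle SNARE and of the member with the smallest p in the comparison of zinc with water. Capitals mark metal-response cores and GC boxes (GGGCGG on either strand, the Sp1 motif).
Rab1a, chr11:20201162-20201411, plus strand: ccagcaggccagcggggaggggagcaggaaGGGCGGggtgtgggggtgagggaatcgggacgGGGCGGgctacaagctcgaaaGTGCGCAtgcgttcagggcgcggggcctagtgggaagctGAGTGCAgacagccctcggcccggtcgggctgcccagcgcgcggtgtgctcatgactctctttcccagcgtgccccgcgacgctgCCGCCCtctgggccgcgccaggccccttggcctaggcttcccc
Rab3d, chr9:21918184-21918433, minus strand: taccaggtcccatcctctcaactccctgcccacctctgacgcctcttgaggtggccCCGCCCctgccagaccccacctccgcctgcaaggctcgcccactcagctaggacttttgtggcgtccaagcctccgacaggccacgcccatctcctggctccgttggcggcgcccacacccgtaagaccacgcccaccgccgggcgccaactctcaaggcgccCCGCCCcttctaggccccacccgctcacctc
Vamp8, chr6:72390668-72390917, minus strand: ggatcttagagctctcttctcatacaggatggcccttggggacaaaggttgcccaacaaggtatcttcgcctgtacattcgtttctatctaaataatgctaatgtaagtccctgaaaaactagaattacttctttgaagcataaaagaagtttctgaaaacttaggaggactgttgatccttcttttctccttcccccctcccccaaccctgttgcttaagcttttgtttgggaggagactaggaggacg
Rab17, chr1:90967668-90967917, minus strand: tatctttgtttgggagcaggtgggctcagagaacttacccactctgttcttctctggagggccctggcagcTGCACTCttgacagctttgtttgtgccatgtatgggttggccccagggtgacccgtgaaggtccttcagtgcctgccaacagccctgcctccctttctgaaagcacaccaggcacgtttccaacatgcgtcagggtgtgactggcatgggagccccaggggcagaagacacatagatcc
Rab1a held 1 of each core and 3 GC boxes. Rab3d held no core and 2 GC boxes, Vamp8 held none of these motifs, and Rab17 held 1 core and no GC box. The bases were 72.4% G or C in Rab1a, 69.2% in Rab3d, 56.8% in Rab17 and 43.6% in Vamp8. Of the 102 members, 81 had 104 RefSeq starts between them, since some have several. Either core was present before 28 of these starts (26.9%), against 24.2% of the starts of all protein-coding genes. GC boxes were found before 66 member starts (63.5%) and before 42.6% of all protein-coding starts, while the TATA box (TATAAA) was found before 5.77% and 11.6%. The median share of G or C was 60% before member starts and 55.6% before all protein-coding starts. The part of base composition in these motif counts was not tested. Neither the start that Paneth cells use nor binding of a factor was measured.

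Rab genes held most of the summed level of the vesicle traffic genes in Paneth cells, and 1 of 17 synaptotagmins reached 1 TPM. To compare genes with each other, counts were divided by the length of the merged exons and scaled to the same sum in each library (TPM). On this scale 51 members reached a mean of 1 TPM and 51 did not. The Rab genes held 82.8% of the summed level of all members, the syntaxins 7.37%, the VAMPs 6.04%, the Snap genes 2.29% and the synaptotagmins 1.52%. There were 9 members with 0 counts in all 8 libraries, namely Rab7b, Rab39, Rab44, Syt2, Syt4, Syt6, Syt8, Syt15 and Syt17. With 3 counts as the bound on a count of 0, these genes could lie at up to 0.115 CPM or up to 0.188 CPM depending on the library, counting error alone being covered.

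**Figure D1:**
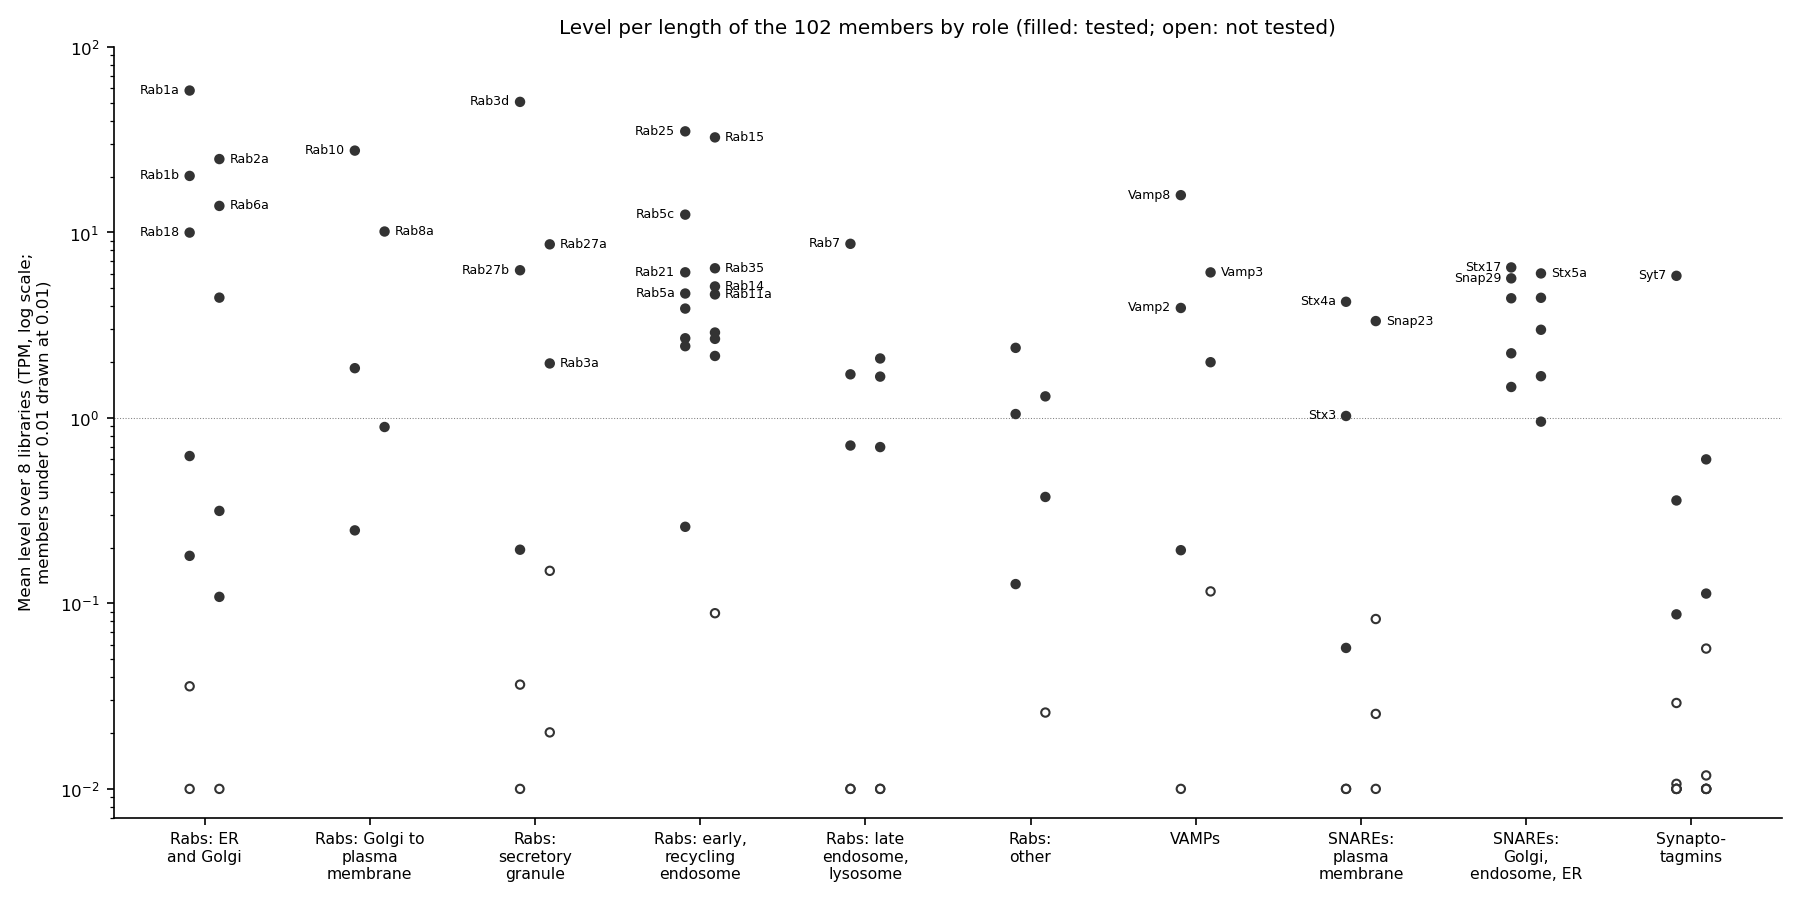
Mean level of each of the 102 members over the 8 libraries, in TPM on a log scale, by the role of the gene. Filled points are members tested between the groups and open points are members too low to test. Rab1a and Rab3d lead at 58.2 and 50.6 TPM, Vamp8 leads the vesicle SNAREs at 15.9 TPM, and Syt7 stands alone above 1 TPM among the synaptotagmins.

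Rab1a, which acts in transport from the ER to the Golgi, had the highest level of all members with 58.2 ± 11.7 TPM (SD, n = 8 libraries) and 12.5% of the summed member level. It lies at chr11:20151096-20176924 on GRCm39. Rab3d, a Rab of mature exocrine granules (chr9:21818510-21829622, minus strand), followed with 50.6 ± 7.21 TPM and was lower than Rab1a in 7 of 8 libraries. Next came Rab25, an epithelial Rab11 relative of apical recycling endosomes (chr3:88449335-88455618, minus strand), at 35.1 ± 10.5 TPM, and the endosomal Rab15 at 32.6 ± 6.62 TPM. These 2 genes did not differ beyond their spread, each being the higher in 4 of 8 libraries. Rab10, which directs vesicles from the Golgi to the plasma membrane, was at 27.6 TPM, Rab2a at 24.9 TPM and Rab1b at 20.2 TPM, each above the next in 8 of 8 libraries. The order of these 3 genes rests on the length used, since with the longest transcript as the length Rab10 was above Rab2a in 5 of 8 libraries and Rab2a above Rab1b in 2 of 8. By that length Rab1a still led, with 12.7% of the sum, and the share of Rab3d was 8.80% in place of 10.8%.

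The Rab genes of secretory granules split into a few high genes and several near 0. Rab3d had counts of 5882 to 7587 per library. The other Rab3 genes were far lower, with Rab3a, the form of synaptic vesicles, at 1.97 ± 0.128 TPM, Rab3b at 0 to 9 counts and Rab3c at 0 to 12 counts per library. Rab3d exceeded Rab3a by 25.7-fold on the TPM scale, with a range of 22.6-fold to 28.8-fold over the libraries. Rab27a and Rab27b, whose products hold granules at the cell cortex in many secretory cells, were both present at 8.63 ± 2.03 and 6.26 ± 1.68 TPM. Rab27a was the higher of the pair in 8 of 8 libraries, by 1.38-fold on average. Rab37 and Rab26, 2 other Rabs of regulated secretion, had only 12 to 52 and 1 to 19 counts per library.

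Among the vesicle SNAREs Vamp8 (chr6:72359012-72368482, minus strand) had the highest level, 15.9 ± 2.42 TPM. It exceeded Vamp3, a SNARE of recycling endosomes, by 2.61-fold and Vamp2 (synaptobrevin 2, chr11:68979316-68983210) by 4.06-fold, and was the higher in 8 of 8 libraries in both cases. Over the libraries the ratio of Vamp8 to Vamp2 ran from 2.50 to 5.77. Vamp1, Vamp5 and Vamp9 were each under 0.2 TPM.

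On the target membrane side, Stx4a, the mouse gene of syntaxin 4, was at 4.23 ± 1.45 TPM and Stx3, the syntaxin of apical membranes, at 1.02 ± 0.230 TPM. The level of Stx4a was 4.13-fold that of Stx3 and was the higher in 8 of 8 libraries. Snap23, the widely expressed partner of these syntaxins, was at 3.33 ± 0.975 TPM, whereas its neuronal counterpart Snap25 had 0 to 7 counts per library. The neuronal syntaxin gene Stx1a was similarly low, with 2 to 9 counts per library. The highest syntaxin by merged exons was Stx17, a SNARE of ER and autophagosomes (chr4:48124908-48186507), at 6.48 ± 1.68 TPM, followed by the Golgi syntaxin Stx5a at 6.01 ± 1.70 TPM. Stx17 was above Stx5a in 5 of 8 libraries, and in 0 of 8 when the longest transcript was the length, so their order is not settled. Snap29, which pairs with Stx17 on autophagosomes and works in other fusion steps, was at 5.66 ± 1.54 TPM.

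Syt7 (chr19:10366033-10430544), a high-affinity calcium sensor for lysosome and granule exocytosis, was at 5.84 ± 1.87 TPM and its counts ran from 749 to 1502. The next synaptotagmin, Syt13, was at 0.598 ± 0.233 TPM, and Syt7 was 9.76-fold higher. Syt1, the fast calcium sensor of synapses, was at 0.113 ± 0.0836 TPM. In all, 12 of 17 synaptotagmins were too low to test between the groups.

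**Figure D2:**
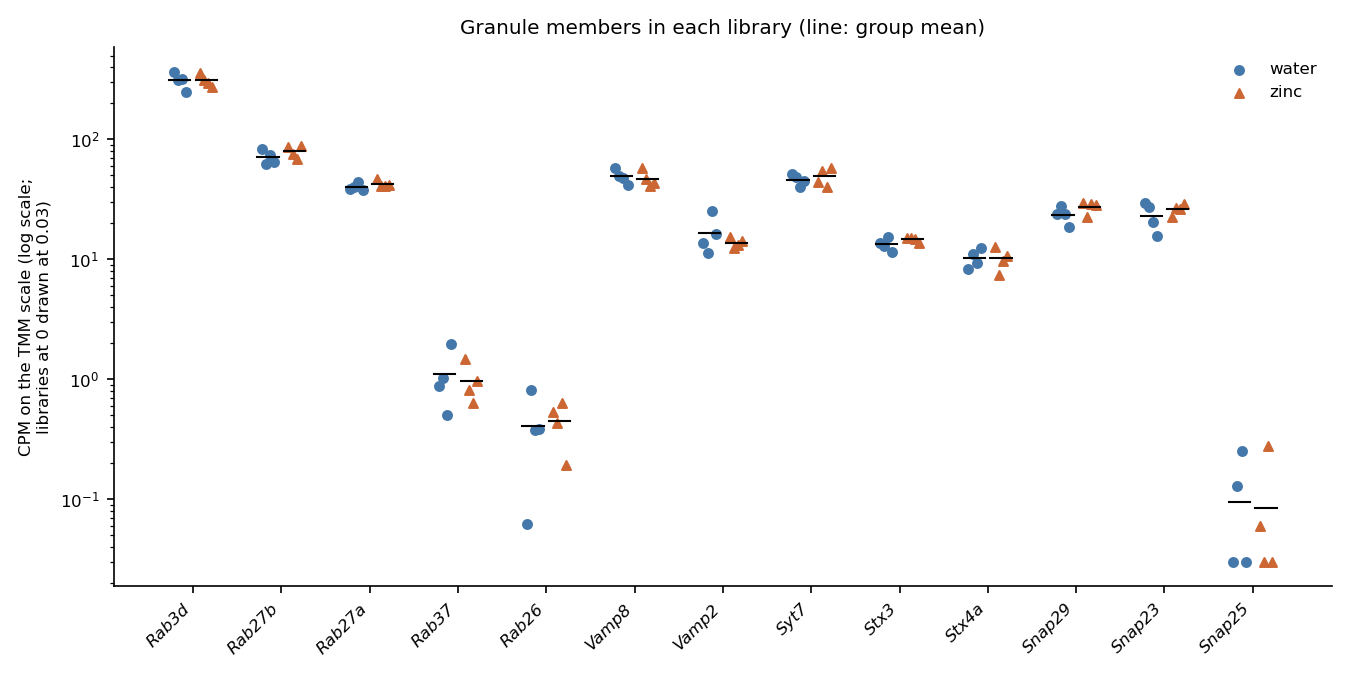
CPM on the TMM scale of the granule members in each library, on a log axis, with circles for water, triangles for zinc and a line at each group mean. The points of both groups overlap for all 13 genes. Rab37, Rab26 and Snap25 lie far below the other 10 genes, at 1.99 CPM or less.

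The comparison of zinc with water asked whether 7 days of zinc altered the level of these genes. None of the 70 tested members passed the threshold (edgeR quasi-likelihood test, Benjamini-Hochberg adjusted p below 0.05 over 11988 genes), and their smallest adjusted p was 0.998. Over all genes tested 0.0834% passed. Without adjustment 1 member (1.43%) had p below 0.05, whereas 4.65% of all genes did. The groups did not overlap in 1 member (1.43%), the same gene, against 2.84% of all genes. DESeq2 and limma-voom also called 0 members, and the smallest adjusted p of any member in any of the 16 alternatives was 0.261.

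The log2 fold changes of the tested members ran from -0.60 for Vamp1 to 0.88 for Rab6b, which had 0 to 35 counts per library. From the 5th to the 95th percentile they ran from -0.29 to 0.57, against -0.48 to 0.37 over all genes tested. Their median was 0.02, with 43 above 0 and 27 below, beside a median of 0.01 with 51.9% above 0 over all genes. The 95% interval of the fold change stayed within 2-fold either way for 57 of the 70 and within 1.5-fold for 47. Of the 45 members at 10 CPM or more, the interval stayed within 2-fold for all 45 and within 1.5-fold for 43, with Vamp2 and Vamp4 as the exceptions. For the 25 tested members below 10 CPM it stayed within 2-fold for 12 and within 1.5-fold for 4, so moderate changes were not detectable in most of these. Simulated counts with 200 changed genes, drawn from tested genes of all levels, gave a recovery of 80.2% of 2-fold changes. In the real data 10 genes passed, so the adjusted threshold was stricter there. The 80.2% is therefore not the recovery for these members. The members took 0.242% ± 0.0246 (SD, n = 4) of counts in water and 0.250% ± 0.0390 (n = 4) in zinc, which differed by less than the spread between libraries.

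**Figure D3:**
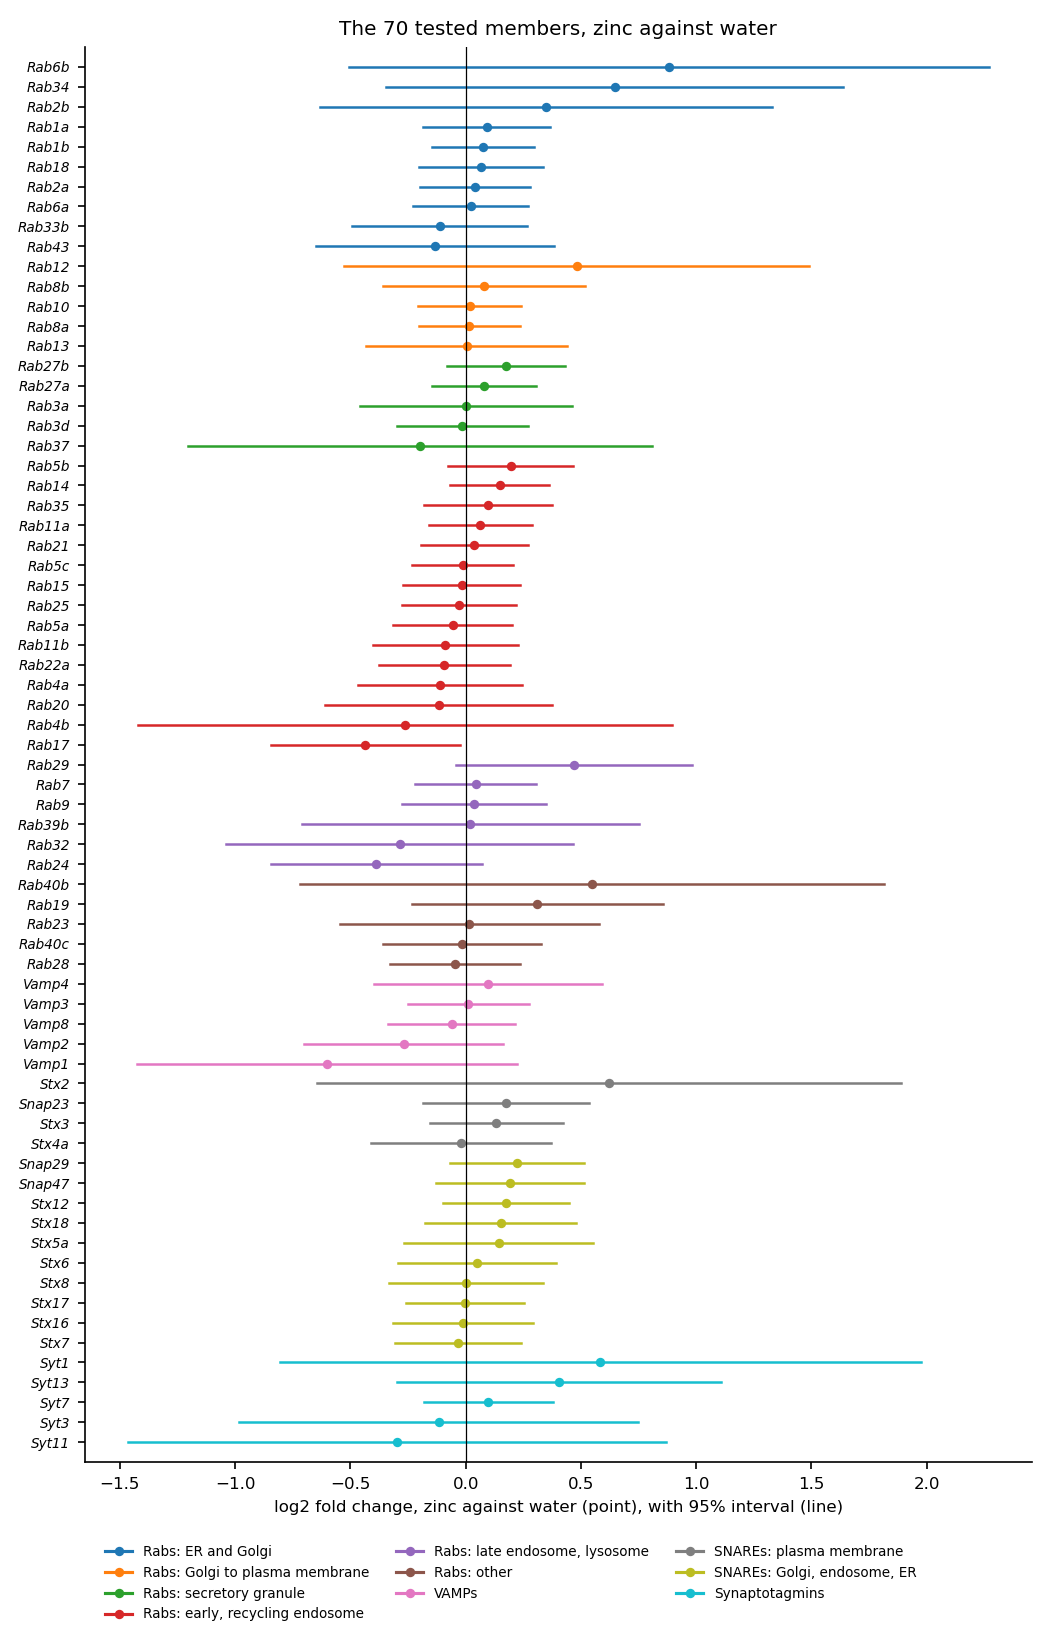
The log2 fold change of zinc against water for each of the 70 tested members (point) with its 95% interval (line), coloured by role. The intervals of 69 members span 0, and that of Rab17 runs from -0.85 to -0.03.

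Rab3d, the leading granule Rab, was at 367.9, 314.3, 320.9 and 248.2 CPM in water replicates 1 to 4 and at 358.8, 311.3, 295.3 and 274.1 CPM in the zinc replicates. The groups overlapped throughout. The log2 fold change was -0.01 (SE 0.14, 95% interval -0.30 to 0.27, adjusted p = 0.998 in edgeR). In both groups the replicate 1 library was the highest and the replicate 4 library the lowest. This pattern, looked for after the values of Rab3d had been seen, was present in 5 of 70 tested members (7.14%), namely Rab3a, Rab3d, Rab7, Rab33b and Syt3, and in 2.69% of all genes tested. The Paneth marker sum was also highest in replicate 1, at 724765 and 729327 CPM, and lowest in replicate 4, at 376125 and 353506 CPM. With library totals as the only scaling 0 members had this pattern, and Rab3d ran from 277.9 to 342.1 CPM with its lowest values in replicate 1. The TMM factors of replicates 1 to 4 were 0.764, 1.02, 1.07 and 1.21 in water and 0.775, 0.998, 1.05 and 1.23 in zinc. A larger factor lowers every CPM of its library, the Paneth marker sum included. The share of counts on Defa (alpha-defensin) genes does not use the TMM factors. It too was highest in replicate 1, at 39.9% (water) and 38.5% (zinc). Its lowest values were those of replicate 4, at 29.2% (water) and 27.9% (zinc). The part of Paneth cell content in the pattern was not tested, and the labels do not say whether a replicate number marks a shared day.

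**Figure D4:**
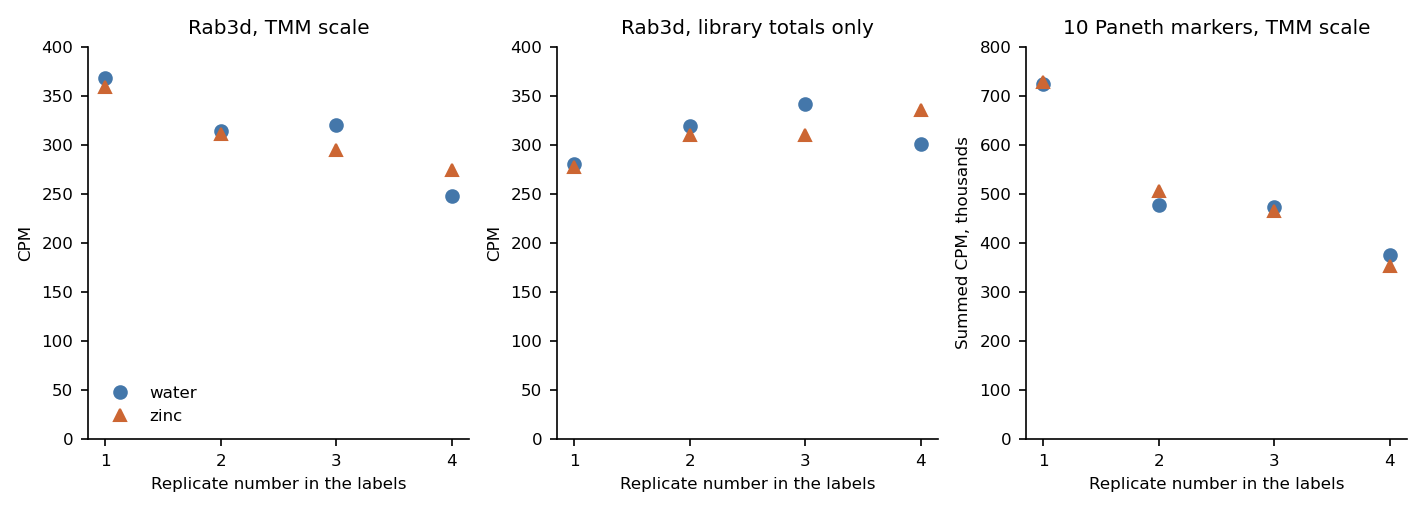
Rab3d in each library by replicate number, in CPM with TMM scaling (left) and with library totals only (middle), and the summed CPM of 10 Paneth markers with TMM scaling (right). Circles are water and triangles are zinc. Rab3d goes from 367.9 and 358.8 CPM in replicate 1 to 248.2 and 274.1 CPM in replicate 4 with TMM scaling, and is lowest in replicate 1 with library totals.

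The Rab27 pair showed slightly higher means in zinc that did not pass the test. Rab27b was at 82.6, 62.6, 74.4 and 64.7 CPM in water and 87.1, 76.1, 69.2 and 88.2 CPM in zinc. Its log2 fold change was 0.17 (95% interval -0.08 to 0.43, unadjusted p = 0.169). Rab27a was at 38.7, 39.9, 44.5 and 37.7 CPM in water and 46.5, 41.0, 40.7 and 41.7 CPM in zinc. For this gene the log2 fold change was 0.08 (95% interval -0.15 to 0.31). Both genes overlapped between the groups, as did Rab37, which had 0.51 to 1.99 CPM in water and 0.63 to 1.48 CPM in zinc. Rab26 was not tested and had 0.06 to 0.82 CPM in water and 0.19 to 0.63 CPM in zinc.

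The vesicle SNARE Vamp8 was at 57.7, 49.4, 47.7 and 41.8 CPM in water and 57.5, 46.8, 40.9 and 43.4 CPM in zinc. Its log2 fold change was -0.06 (SE 0.13, 95% interval -0.34 to 0.21). Vamp2 was at 13.6, 11.3, 25.3 and 16.2 CPM in water and 15.4, 12.4, 13.2 and 14.2 CPM in zinc. Water replicate 3 was above every other library. The log2 fold change of Vamp2 was -0.27 (SE 0.20) with this library and 0.003 without it. The related Vamp1 was low, at 1.19, 1.50, 4.31 and 2.60 CPM in water and 1.13, 1.69, 1.78 and 1.75 CPM in zinc, and was again highest in water replicate 3. It had the most negative fold change of the tested members, -0.60 (SE 0.39, unadjusted p = 0.143).

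Fusion partners at the target membrane overlapped between the groups as well. Stx3 was at 11.5 to 15.4 CPM in water and 13.8 to 15.1 CPM in zinc, with a log2 fold change of 0.13 (SE 0.14). The corresponding ranges for Stx4a were 8.26 to 12.4 CPM and 7.39 to 12.8 CPM. Snap23 was at 29.3, 27.4, 20.3 and 15.6 CPM in water and 22.7, 26.6, 26.0 and 28.8 CPM in zinc. Its water libraries thus spanned the zinc libraries, and the log2 fold change was 0.17 (SE 0.17). Snap25 had 0 to 0.25 CPM in water and 0 to 0.28 CPM in zinc, both close to the limit that a count of 0 allows. Snap29 was at 23.7, 27.6, 24.1 and 18.5 CPM in water and 29.5, 22.7, 28.8 and 28.4 CPM in zinc. In 3 of 4 zinc libraries Snap29 was above every water library, and its log2 fold change was 0.22 (95% interval -0.07 to 0.51, unadjusted p = 0.125). Syt7 was at 39.7 to 51.4 CPM in water and 39.7 to 58.3 CPM in zinc.

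Rab17 (chr1:90885855-90897383, minus strand), an epithelial Rab of apical recycling and transcytosis, had the smallest p of all members. It was at 5.38, 6.57, 7.15 and 6.99 CPM in water and 3.92, 5.26, 5.18 and 4.93 CPM in zinc. All 4 zinc libraries lay below all 4 water libraries, with 5.26 CPM as the highest zinc value and 5.38 CPM as the lowest water value. The log2 fold change was -0.44 (SE 0.19, unadjusted p = 0.0387, adjusted p = 0.998 in edgeR), which does not pass the test. With library totals as the only scaling the groups overlapped, since water replicate 1 was then at 4.11 CPM and the zinc libraries reached 6.04 CPM.

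The other members with the smallest p moved in both directions. Rab29, a Rab of the trans-Golgi and lysosomes that works with the kinase Lrrk2, was at 6.19, 5.63, 4.02 and 2.67 CPM in water and 7.13, 5.55, 6.48 and 6.32 CPM in zinc, with a log2 fold change of 0.47 (unadjusted p = 0.0702). Rab24, linked to autophagy, was at 8.44, 5.80, 9.52 and 9.85 CPM in water and 7.84, 7.48, 6.08 and 4.42 CPM in zinc, with a log2 fold change of -0.39 (unadjusted p = 0.0919). Each overlapped between the groups. Rab5b, a Rab of early endosomes, was at 16.8 to 19.2 CPM in water and 18.1 to 23.3 CPM in zinc, with a log2 fold change of 0.20. Rab14, which acts between endosomes and the Golgi, was at 70.8 to 82.9 CPM in water and 81.1 to 85.3 CPM in zinc, with a log2 fold change of 0.15.

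Rab1a, Rab25 and Stx17, named for their high levels, had intervals that spanned 0. The SE of Rab1a, 0.13, was also the median SE of the 45 members at 10 CPM or more. Rab1a was at 298.7, 292.8, 236.7 and 215.2 CPM in water and 310.5, 245.1, 287.9 and 267.4 CPM in zinc. The groups overlapped, and the log2 fold change was 0.09 (95% interval -0.19 to 0.37). Rab25 was at 54.6 to 69.8 CPM in water and 52.5 to 68.4 CPM in zinc, with a log2 fold change of -0.03 (95% interval -0.27 to 0.22). Stx17 was at 38.2 to 49.5 CPM in water and 38.1 to 48.2 CPM in zinc, with an interval of -0.26 to 0.25.

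By role, the signs were mixed. Fold changes were above 0 in 8 of 10 tested Rabs of ER and Golgi, in 5 of 5 of the route from Golgi to plasma membrane, in 3 of 5 of granules, in 5 of 15 of early and recycling endosomes, in 4 of 6 of late endosomes and lysosomes and in 3 of 5 other Rabs. Among the fusion genes they were above 0 in 2 of 5 VAMPs, 3 of 4 SNAREs of the plasma membrane, 7 of 10 SNAREs of Golgi, endosomes and ER and 3 of 5 synaptotagmins. The medians by role lay between -0.06 for the VAMPs and 0.15 for the SNAREs of the plasma membrane, beside 0.01 for all genes. The 21 tested members with a metal-response core in the 250 bases before a start had a median log2 fold change of 0.02, with 14 above 0 and 7 below. The 40 tested members without one had a median of 0.04, with 23 above 0 and 17 below. Tested members varied between libraries about as much as other genes, with a median coefficient of variation of 16.2% in water and 11.8% in zinc, against 17.4% and 14.6% over all genes tested.

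The genes that work with Rabs and SNAREs gave the same count. Of 85 partner genes 68 were tested, and 0 passed the threshold, while 4 (5.88%) had an unadjusted p below 0.05, against 4.65% of all genes. The groups did not overlap in 3 (4.41%), against 2.84% of all genes. Those above and below 0 were equal in number, 34 each. Rabgef1, an exchange factor that activates Rab5, was at 11.01, 9.75, 10.2 and 9.36 CPM in water and 6.59, 8.16, 8.30 and 7.45 CPM in zinc. Its groups did not overlap, and the log2 fold change was -0.40 (SE 0.16, unadjusted p = 0.0208), which does not pass the test.

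Effectors of the abundant granule Rabs were present too. The most abundant was Mlph, the melanophilin that links Rab27a to myosin, at 24.0 ± 4.92 TPM. Of the myosin genes on the effector list, Myo5a had only 1 to 33 counts per library, while Myo5b and Myo5c were at 5.45 ± 1.59 and 3.57 ± 0.955 TPM. The level of Stxbp2 (Munc18-2, the SM protein of epithelial and blood cells) was 9.96 ± 2.30 TPM. Unc13d, a priming factor of blood cell granules, had 0 to 10 counts per library, and its relative Unc13b was at 1.46 ± 0.440 TPM. Of 17 priming genes only 6 were high enough to test, against 9 of 9 exocyst genes, 12 of 12 other SNAREs, 11 of 12 SM and SNARE recycling genes, 15 of 19 Rab effectors and 15 of 16 Rab regulators.

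A set of 17 members known from neurons and endocrine cells (among them Rab3a to Rab3c, Stx1a, Snap25, Vamp1, Vamp2 and 9 synaptotagmins) was set beside 14 enteroendocrine markers. Of these members Vamp2 is also a SNARE of exocrine granules. Of the 17, 6 were tested, 7 had under 10 counts in every library and 2 of these had 0 counts throughout. Their summed level was 34.6, 29.2, 43.9 and 31.2 CPM in water and 40.0, 34.3, 26.8 and 32.3 CPM in zinc. Vamp2 alone held 36.2% to 57.5% of the sum. Both sums were highest in water replicate 3, at 43.9 CPM for the members and 149.7 CPM for the markers. Chgb was at 63.4 CPM there against 3.44 to 32.2 CPM elsewhere, and Chga, Pcsk1 and Tph1 were also highest there. The other markers were not. Among them Sct was at 20.5, Gip at 0, Sst at 1.65 and Ghrl at 1.02 CPM there, against maxima of 36.5, 18.1, 10.2 and 9.70 CPM elsewhere. Over all 8 libraries the log2 sums were not related by this test (Pearson r = 0.154, exact permutation p = 0.706, adjusted p = 0.793, and Spearman rho = 0.119, exact permutation p = 0.793, adjusted p = 0.793, 2-sided, over 2 measures). Without the 2 libraries farthest from the median marker sum, water replicate 3 and zinc replicate 4, r was -0.592. With library totals as the only scaling r was 0.767 (exact permutation p = 0.0319), so the relation rests on the scaling.

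**Figure D5:**
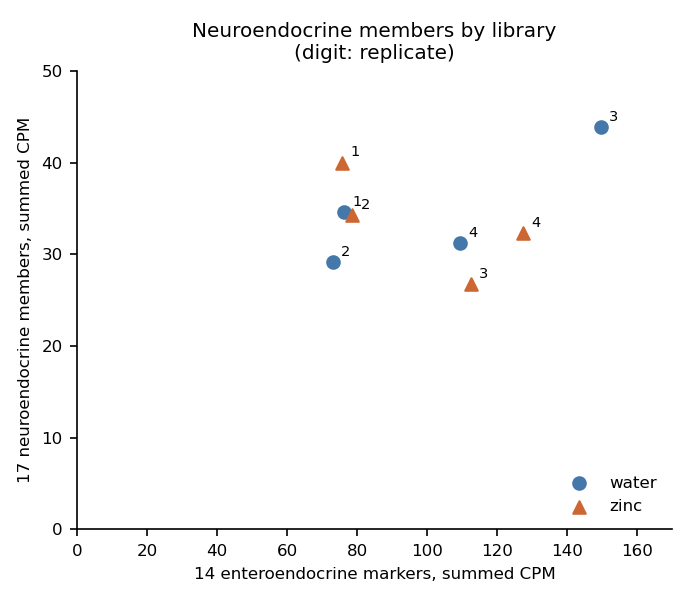
Summed CPM of 17 neuroendocrine members against that of 14 enteroendocrine markers in each library, on the TMM scale, with circles for water, triangles for zinc and the replicate number beside each point. Water replicate 3 is highest on both axes, at 149.7 and 43.9 CPM, and the other 7 libraries lie between 26.8 and 40.0 CPM on the vertical axis.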

How the data were processed

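The authors deposited unnormalized counts of reads in whole numbers for each Ensembl ID, in 8 columns, 1 per library. The submitters' processing notes name FastQC 0.12.0, STAR 2.7.0a, DESeq2 and the build mm39. Sources used here do not name the counting program or the treatment of reads shared by similar genes, so closely related genes could share reads. Symbols, lengths and coordinates were taken from GENCODE M39 (GRCm39) through the IDs (54749 of 55414 IDs, at least 99.99% of counts). Columns of other samples numbered 0.

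Zinc was compared with water in edgeR 4.0.16 (R 4.3.3) after its standard filter on low counts (minimum count 10, 11988 genes), TMM scaling and the quasi-likelihood F test on treatment alone. Benjamini-Hochberg adjustment ran over all genes tested. Fold changes are log2 values of zinc over water, and SE was taken from the F statistic. Alternatives used RLE factors, library totals, no Defa genes, DESeq2 1.42.0, limma-voom 3.58.1, other filters, a replicate block and each library left out. On simulated counts of 11988 genes for this comparison, with 200 changed, edgeR made 195 calls, of which 20 were false, and recovered 80.2% of 2-fold and 95.5% of 4-fold changes. Correlations were tested over all 40320 pairings with scipy 1.17.1.

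Replicate libraries were not copies of each other (chi-square statistic per degree of freedom of 31.4 or more for each pair), so each was 1 replicate. No molecular identifiers were used, so limits cover counting error only. The members, gene lists and tests were chosen with earlier results of these data known. Named genes were the granule list, the 8 tested members with the smallest p, the highest 3 Rabs and the highest VAMP, syntaxin and synaptotagmin by TPM, members at 0 counts, and the 2 partner genes with the smallest p, of which 1 is not reported here. Other names were chosen after their values were seen.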

Additional observations from a re-analysis of the deposited data

Results flagged for a closer look

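In 52 groups of 4 libraries examined (total counts, the member share and the CPM of each named gene, in each treatment), 3 held a library whose gap to its nearest neighbour was over Dixon's 95% critical value as a share of the group's range. Chance flags about 1 in 20 such groups. The members took 0.206% of counts in water replicate 1, against 0.252% to 0.259% in the other water libraries. Zinc replicate 1 was similarly low at 0.208%. Water replicate 1 also had the highest share of counts on Defa genes, 39.9%. With Defa genes left out of the total its member share was 0.343%, against 0.367% to 0.381% in the other water libraries. Snap29 was at 22.7 CPM in zinc replicate 2, where the other 3 zinc libraries had 28.4 to 29.5 CPM. Vamp1 was at 1.13 CPM in zinc replicate 1, against 1.69 to 1.78 CPM in the others.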

How the results depend on the processing

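The count of members past the threshold was 0 in all 16 alternatives. The number of members with an unadjusted p below 0.05, 1 in the report, was 0 with library totals only, 2 with limma-voom, 3 with no low-count filter and 0 to 5 when 1 library was left out. The count of members whose groups do not overlap, 1 in the report, was 0 with library totals only and 1 to 4 with 1 library left out. Partner genes past the threshold were 0, and 1 with no low-count filter. The median log2 fold change of the tested members ran from -0.01 to 0.06 with 1 library left out. The correlation with enteroendocrine markers was 0.767 with library totals only, -0.523 with Vamp2 left out (chosen after seeing the data) and -0.461 to 0.369 with 1 library left out. It was -0.461 without water replicate 3. The share of counts on the members differed by -0.0092 to 0.0217 percentage points.

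Of 22 named genes, 15 kept their direction in every alternative and 7 turned sign in 1 or more, in 19 of 350 values. With 1 library left out, Rab3d ran from -0.11 to 0.072, Rab37 from -0.46 to 0.26, Vamp2 from -0.42 to 0.0028, Vamp8 from -0.17 to 0.023, Stx4a from -0.15 to 0.10, Rab25 from -0.10 to 0.034 and Stx17 from -0.065 to 0.067. The libraries whose removal turned the sign were water replicate 1 and zinc replicates 3 and 4 for Rab3d, water replicate 4 for Rab37, water replicate 3 for Vamp2, water replicate 1 for Vamp8, water replicates 2 and 4 and zinc replicate 2 for Stx4a, and water replicate 4 and zinc replicate 3 for Rab25. Stx17, at -0.001 in the report, was also 0.0137 with library totals only, 0.0035 with limma-voom, 0.0021 with no low-count filter and 8.0e-05 with the replicate block. The cause was not tested in any of these cases.

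The replicate block, which treats equal numbers as pairs, gave 0 members past the threshold and 2 with an unadjusted p below 0.05. Correlations of same-numbered libraries were above 0.1 in 3 of 4 pairs and ran from 5.5e-05 to 0.263. Those of libraries with unlike numbers ran from -0.21 to 0.040, and 6 of 8 libraries correlated best with their own number. Some structure was thus shared by number. The labels do not say what a number marks, and the main test did not take the numbers as pairs. Its p-values therefore leave that structure in the spread between libraries. Intervals were wider for most members below 10 CPM than for those above, and the parts of depth and of spread between libraries were not tested.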
